A study of Mus musculus with 16 samples.

Results

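The 8 genes described here are the neurexins Nrxn2 and Nrxn3, the neuroligins Nlgn1, Nlgn2 and Nlgn3, and the neurexophilins Nxph1, Nxph3 and Nxph4. They were taken by gene symbol from 3 comparison tables of 39017 gene rows each, and all 8 were present in every table. RNA came from the prelimbic cortex (PL), a medial prefrontal area, of C57BL/6J mice, an inbred strain. All animals carried AAV-IV-GFPL10, an adeno-associated virus encoding a ribosomal protein tagged with green fluorescent protein, in PL, and CAV-Cre, a canine adenovirus that is taken up by axon terminals, in a target region. The target was the ventral tegmental area (VTA), the nucleus accumbens (NAc) or the basolateral amygdala (BLA). The immunoprecipitate (IP) was the RNA pulled down with the tagged polysomes of PL neurons reaching that target, and the Input was total RNA of the PL tissue. There were 3 IP and 3 Input libraries for PL-NAc, 3 and 3 for PL-BLA, and 2 and 2 for PL-VTA. The labels give no age or sex, and do not say whether libraries came from separate animals or pools, so the p-values measure only the spread between these libraries, which may be technical.

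Neurexins are presynaptic membrane proteins whose extracellular part reaches across the synaptic cleft. Neuroligins are their best known postsynaptic partners, with Nlgn1 found mainly at excitatory synapses, Nlgn2 at inhibitory synapses and Nlgn3 at both. Neurexophilins are secreted glycoproteins that bind the extracellular part of the long (alpha) neurexins. In cortex Nxph1 is known as a gene of inhibitory interneurons, while Nxph3 is known from deep cortical layers.

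Members of each family are close in sequence, which matters for telling their reads apart. The best conserved stretch of 90 coding bases is shown for each family to make this visible, from GENCODE M21 transcripts on GRCm38, 5′ to 3′ on the coding strand. Capitals mark bases that differ from the first gene of each family.
Nxph1: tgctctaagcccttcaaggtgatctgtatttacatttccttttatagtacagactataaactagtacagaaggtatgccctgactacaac
Nxph3: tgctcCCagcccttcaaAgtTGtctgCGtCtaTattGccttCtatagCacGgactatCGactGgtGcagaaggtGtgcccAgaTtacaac
Nxph4: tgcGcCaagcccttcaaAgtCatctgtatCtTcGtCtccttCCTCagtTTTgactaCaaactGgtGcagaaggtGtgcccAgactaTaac
Nlgn1: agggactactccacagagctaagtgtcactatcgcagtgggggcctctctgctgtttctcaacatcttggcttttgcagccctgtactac
Nlgn2: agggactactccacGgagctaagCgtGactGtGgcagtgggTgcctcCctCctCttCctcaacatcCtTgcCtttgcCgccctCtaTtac
Nlgn3: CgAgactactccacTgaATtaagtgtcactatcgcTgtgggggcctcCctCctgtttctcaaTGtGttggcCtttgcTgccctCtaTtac
Nrxn2: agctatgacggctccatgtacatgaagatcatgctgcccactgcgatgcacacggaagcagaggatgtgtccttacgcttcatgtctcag
Nrxn3: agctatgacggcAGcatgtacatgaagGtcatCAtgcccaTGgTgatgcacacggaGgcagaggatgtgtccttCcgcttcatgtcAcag

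In these windows Nxph3 was 77.8% and Nxph4 76.7% identical to Nxph1. Nlgn2 was 82.2% and Nlgn3 83.3% identical to Nlgn1, and Nrxn3 was 87.8% identical to Nrxn2. Over the annotated transcripts of the 7 pairs within a family, the longest stretch shared without a mismatch ran from 12 bases, between Nxph1 and Nxph4, to 24 bases, between Nxph3 and Nxph4. Pairs across families were not compared.

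The genes differ greatly in size on GRCm38. Nrxn3 spans chromosome 12, 88722876 to 90334935 (1612 kb), Nlgn1 chromosome 3, 25426215 to 26332460 (906 kb), and Nxph1 chromosome 6, 8948431 to 9249032 (301 kb). Nrxn2 lies on chromosome 19, 6418731 to 6544169, Nlgn3 on chromosome X, 101299168 to 101325963, and Nlgn2 on chromosome 11, 69823122 to 69837784. Nxph3 occupies only 4.73 kb of chromosome 11, 95509845 to 95514570, and Nxph4 9.09 kb of chromosome 10, 127525473 to 127534559. Libraries did not mark the strand, so reads from an overlapping antisense gene cannot be told apart from those of the gene itself. The antisense gene A830092H15Rik covers 9.16% of the exon bases of Nlgn1, and Gm21986, on the same strand, covers 41.2% of those of Nlgn3. In the authors' deposited tables A830092H15Rik had means of 57.5 to 89.9 normalized counts and Gm21986 of 0.688 to 1.62.

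Values below are those of the authors' deposited tables: the mean of normalized counts over the libraries of a comparison, and the log2 fold change of IP over Input with its standard error (SE). A gene is called higher or lower at an adjusted p under 0.05 by DESeq2 in those tables. The mean normalized counts summed to between 15437849 and 16520414 per table. At means of at least 50, the median SE was 0.219 in PL-VTA against 0.124 in PL-NAc and 0.129 in PL-BLA, and only larger changes could be resolved there. The tables do not name their direction, which was read as IP over Input because glial genes were negative. For that reason the negative glial values are no finding. They had median log2 fold changes of -2.11, -1.39 and -1.49 over 8 astrocyte markers in PL-NAc, PL-BLA and PL-VTA in the authors' deposited tables.

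Across the 8 genes, Nlgn1 rose and Nxph1 fell in all 3 projections, while Nxph3 went in opposite directions in PL-NAc and PL-BLA. In PL-NAc 3 of the 8 were higher (Nrxn2, Nlgn1, Nxph3) and 1 lower (Nxph1), where 43.1% of all tested genes were called, 21.4% higher and 21.7% lower. In PL-BLA 2 were higher (Nrxn2, Nlgn1) and 2 lower (Nxph1, Nxph3), where 41.0% of all genes were called, 20.8% higher and 20.2% lower. In PL-VTA 2 were higher (Nrxn3, Nlgn1) and 1 lower (Nxph1), where 21.5% of all genes were called, 11.0% higher and 10.5% lower. The number of members called was thus near the background in the first pair of projections, and the description below rests on the single genes. All 8 carried an adjusted p in each table, and their means ran from 40.4 to 2687 normalized counts in the authors' deposited tables. The median log2 fold change of the 8 was 0.32, 0.10 and 0.30 in PL-NAc, PL-BLA and PL-VTA, beside -0.03, -0.02 and 0.02 over all tested genes.

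**Figure D1:**
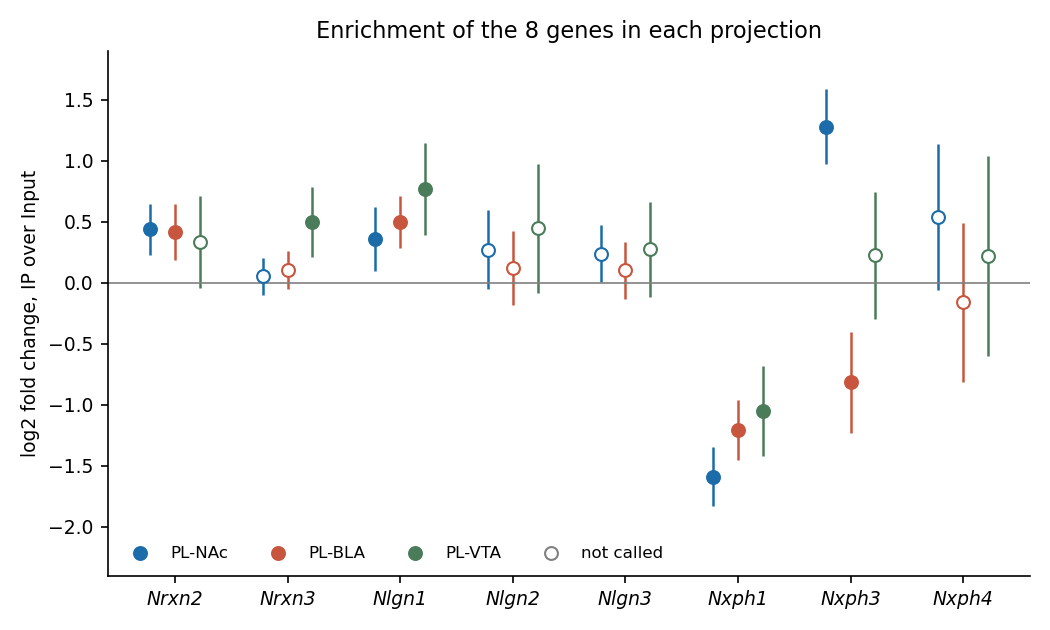
Log2 fold change of IP over Input (vertical axis) for each of the 8 genes (horizontal axis) in the 3 projections, with 95% intervals from the authors' SE; filled points were called at an adjusted p under 0.05, open points were not. Nxph1 lies below 0 in all 3 projections, from -1.59 to -1.05, and Nxph3 lies at 1.28 in PL-NAc and at -0.82 in PL-BLA.

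Neurexins are described first. Nrxn3 had the highest mean count of the 8 genes before any division by exon length. Its means were 1981, 2638 and 2687 normalized counts in PL-NAc, PL-BLA and PL-VTA in the authors' deposited tables. Its log2 fold change was 0.05 (SE 0.08, adjusted p 0.633) in PL-NAc and 0.11 (SE 0.08, adjusted p 0.296) in PL-BLA, and it was not called in either of these authors' deposited tables, by DESeq2. In PL-VTA it rose 1.41-fold, by 0.50 (SE 0.15, adjusted p 0.0054) by DESeq2 in the authors' deposited table. That call was lost when an absolute change of at least 0.5 was required, as the unrounded value lies just under it. The 95% interval of the PL-NAc change ran from -0.10 to 0.20 and that of PL-VTA from 0.21 to 0.78. The difference between projections itself did not pass: PL-NAc was -0.44 (SE 0.16) against PL-VTA and PL-BLA was -0.39 (SE 0.17) against PL-VTA, with adjusted p of 0.195 and 0.334 over all genes by a two-sided Wald test. Nrxn2 had means of 791, 895 and 865 normalized counts in the authors' deposited tables. It rose by 0.44 (SE 0.11, adjusted p 0.000216) in PL-NAc and 0.42 (SE 0.12, adjusted p 0.00138) in PL-BLA by DESeq2 in the authors' deposited tables. In PL-VTA it stood at 0.33 (SE 0.19, adjusted p 0.226) and was not called by DESeq2 in the authors' deposited table. Its point estimates lay between 1.26-fold and 1.35-fold. The intervals of its differences between projections all spanned 0, from -0.36 at the lowest to 0.53 at the highest. These intervals are too wide to show that its enrichment was equal.

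Of the neuroligins only Nlgn1, the excitatory synapse member, was called. Nlgn1 rose by 0.36 (SE 0.13, adjusted p 0.0189) in PL-NAc, by 0.50 (SE 0.11, adjusted p 3.6e-05) for PL-BLA neurons and by 0.77 (SE 0.19, adjusted p 0.000713) in PL-VTA by DESeq2 in the authors' deposited tables. These are 1.28-fold, 1.41-fold and 1.70-fold, at means of 506, 686 and 762 normalized counts in the authors' deposited tables. The order of the 3 projections is not established, since the largest difference, -0.41 (SE 0.23) for PL-NAc against PL-VTA, had an adjusted p of 0.803 by the two-sided Wald test and an interval from -0.86 to 0.05. The PL-NAc call was lost when fold changes were recentred on the median gene, where Nlgn1 stood at 0.30 with an adjusted p of 0.0554 by the Wald test. A830092H15Rik, which overlaps it on the other strand, was 0.48 (SE 0.30), 0.40 (SE 0.27) and 0.96 (SE 0.37) in PL-NAc, PL-BLA and PL-VTA in the authors' deposited tables, and its part in the Nlgn1 values was not tested.

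Nlgn2, which sits at inhibitory synapses, and Nlgn3 were positive in all 3 projections without being called in any. Nlgn2 was 0.27 (SE 0.16, adjusted p 0.182), 0.12 (SE 0.15, adjusted p 0.583) and 0.45 (SE 0.27, adjusted p 0.258) in PL-NAc, PL-BLA and PL-VTA by DESeq2 in the authors' deposited tables. Nlgn3 was 0.24 (SE 0.12, adjusted p 0.0995), 0.10 (SE 0.12, adjusted p 0.542) and 0.27 (SE 0.20, adjusted p 0.375) in the same order, by DESeq2 in the authors' deposited tables. The 95% intervals bound what these data allow: Nlgn2 changed by between -0.05 and 0.59 in PL-NAc, between -0.18 and 0.42 in PL-BLA and between -0.08 and 0.97 in PL-VTA. For Nlgn3 the intervals ran from 0.002 to 0.47, from -0.13 to 0.33 and from -0.12 to 0.66. The 3 neuroligins thus had overlapping intervals in each projection, and a difference among them was not tested because they were measured in the same libraries.

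To compare levels between genes, the level in each kind of library was derived from the mean and the fold change, assuming equal weight for IP and Input, and divided by the kb of exon annotated in GENCODE M21. These derived levels carry no replicate error and inherit any shrinkage of the fold change. In the PL-NAc Input the order per kb was Nxph1 at 192, Nrxn3 at 154, Nxph3 at 93.8, Nlgn3 at 52.9, Nrxn2 at 48.7, Nlgn2 at 36.6, Nlgn1 at 33.0 and Nxph4 at 23.7 normalized counts per kb. Nlgn3 therefore had the highest level of the 3 neuroligins in Input, with 43.2%, 43.7% and 43.3% of their summed level per kb in PL-NAc, PL-BLA and PL-VTA. Nlgn1 made up 27.0%, 26.2% and 27.5% in Input and 28.5%, 31.7% and 33.7% in IP. In the PL-NAc IP the order was led by Nxph3 at 227 and Nrxn3 at 160 normalized counts per kb, with Nrxn2 at 65.9, Nxph1 at 63.9 and Nlgn3 at 62.3. No error is available to put the last 3 of these in order.

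**Figure D2:**
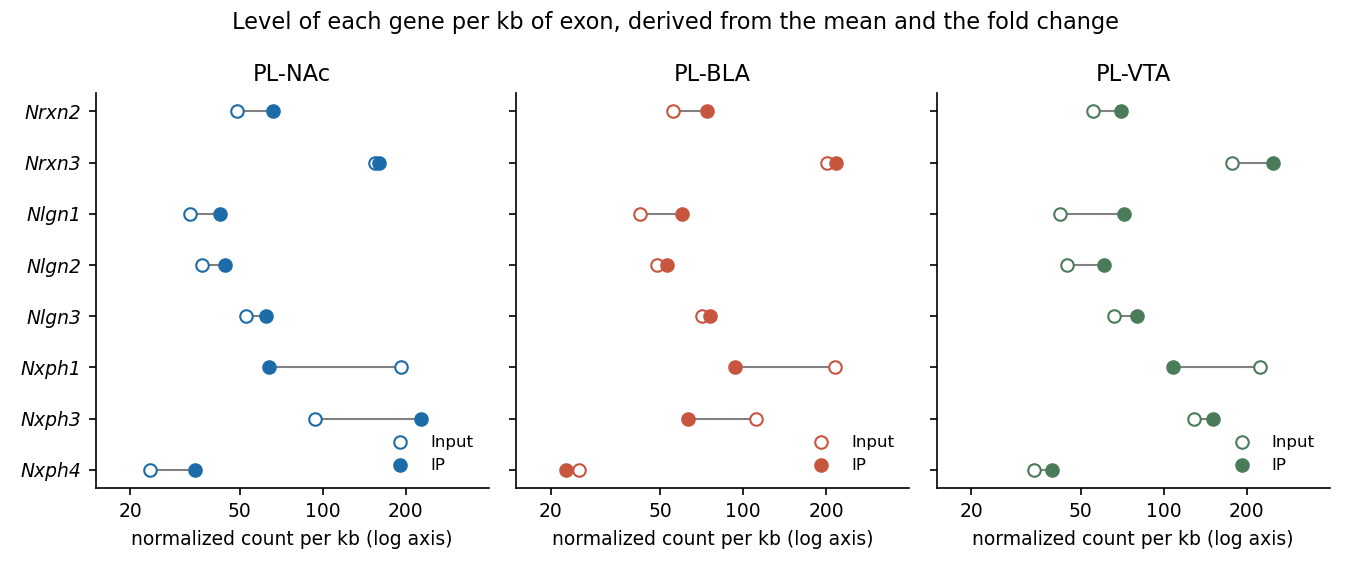
Derived level of each gene in Input (open) and IP (filled) in normalized counts per kb of exon, on a log axis, with 1 panel for each projection; no error can be given for these derived values. Nxph1 moves left from Input to IP in each panel, and Nxph3 moves right in PL-NAc, from 93.8 to 227, and left in PL-BLA, from 111 to 63.2.

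Nxph1, the interneuron member of the neurexophilins, had the largest decrease of the 8 genes in each projection. On the log2 scale PL-NAc neurons gave -1.59 (SE 0.12), PL-BLA neurons -1.21 (SE 0.12) and PL-VTA neurons -1.05 (SE 0.19) in the authors' deposited tables, with adjusted p of 1.2e-36, 9.6e-21 and 9.0e-07 by DESeq2. The IP thus held 33.2%, 43.3% and 48.3% of the Input level. In derived counts the PL-NAc level went from 915 in Input to 304 in IP, the PL-BLA level from 1022 to 442 and the PL-VTA level from 1065 to 514 normalized counts. These values set RNA pulled down with tagged polysomes against tissue RNA. They do not measure cell number or RNA per cell. Only 4.85%, 6.18% and 6.35% of tested genes had a lower fold change than Nxph1 in PL-NAc, PL-BLA and PL-VTA.

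Markers of other cell types were lower as well, and for glia that sign is no finding, as stated above. In the authors' deposited tables oligodendrocyte markers had medians of -2.94, -2.31 and -2.49 in PL-NAc, PL-BLA and PL-VTA. Microglia markers had -3.05, -2.10 and -2.15. Markers of endothelial and mural cells, of blood vessels, had -1.54, -1.40 and -1.04, with 5, 6 and 3 of 6 called lower. Of 6 markers of oligodendrocyte precursors, glial cells that divide in the adult brain, 5 were lower in each projection, with medians of -1.62, -1.25 and -1.16 in the authors' deposited tables, and Cspg4 was the exception each time. Of 10 inhibitory neuron markers 9, 10 and 8 were lower in PL-NAc, PL-BLA and PL-VTA, with medians of -1.56, -1.35 and -1.55 in the authors' deposited tables. The parvalbumin gene Pvalb was -3.48 (SE 0.14), -3.02 (SE 0.14) and -2.65 (SE 0.21) in the authors' deposited tables. The calretinin gene Calb2 was -3.64 (SE 0.11), -2.46 (SE 0.13) and -1.41 (SE 0.44), and the neuropeptide Y gene Npy was -0.85 (SE 0.08), -1.33 (SE 0.10) and -3.07 (SE 0.17), in the authors' deposited tables. Lhx6, a transcription factor of interneurons from the medial ganglionic eminence, was -1.81 (SE 0.14), -1.99 (SE 0.14) and -2.10 (SE 0.24) in the authors' deposited tables. The GABA synthesis gene Gad1 was -1.24 (SE 0.07), -0.70 (SE 0.16) and -0.63 (SE 0.16) in the authors' deposited tables. Of the same list Gad2, at -0.20 (SE 0.42), and Slc32a1, at -0.43 (SE 0.35), were not called in PL-VTA in the authors' deposited table. Sst, the somatostatin gene, was 0.26 (SE 0.09) in PL-NAc but -0.53 (SE 0.09) in PL-BLA and -1.69 (SE 0.19) in PL-VTA in the authors' deposited tables. The part of interneuron or precursor RNA in the Nxph1 values was not tested. The decrease of Nxph1 was nominally deeper in PL-NAc, by -0.38 (SE 0.18) against PL-BLA and -0.54 (SE 0.23) against PL-VTA, but neither difference passed adjustment (0.571 and 0.337, two-sided Wald test).

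Nxph3, the deep-layer member, was the only 1 of the 8 that was called in opposite directions. In PL-NAc it rose 2.43-fold, by 1.28 (SE 0.16, adjusted p 3.3e-15) by DESeq2 in the authors' deposited table. It fell by 0.82 (SE 0.21) to 56.8% of Input in PL-BLA, with an adjusted p of 0.000468 by DESeq2 in the authors' deposited table. In PL-VTA it was 0.22 (SE 0.27, adjusted p 0.633) which DESeq2 did not call in the authors' deposited table, with an interval from -0.30 to 0.75. The 95% interval was 0.97 to 1.58 in PL-NAc and -1.23 to -0.40 in PL-BLA, so these do not overlap. In PL-NAc 99.4% of tested genes had a lower fold change than Nxph3. The derived Input levels were 197, 234 and 270 normalized counts in PL-NAc, PL-BLA and PL-VTA, and the derived IP levels 477, 133 and 316.

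The difference between projections was tested directly. Enrichment of Nxph3 was higher in PL-NAc than in PL-BLA by 2.09 (SE 0.26; interval 1.58 to 2.61), a 4.27-fold difference, with an adjusted p of 7.4e-12 over 21981 genes by the two-sided Wald test. Only 1.14% of all genes passed in this comparison, and Nxph3 was the single member that did. Against PL-VTA it was higher in PL-NAc by 1.05 (SE 0.31; interval 0.45 to 1.66), with an adjusted p of 0.0320 by the Wald test, where 2.29% of all genes passed, and again no other member did. That call did not hold at a threshold of 0.01 or under Bonferroni adjustment. PL-BLA was lower than PL-VTA by -1.04 (SE 0.34), with an adjusted p of 0.0662 by the Wald test. In that comparison 0 of the 8 members passed, where 3.05% of all genes did. Restricted to genes with means of at least 50, the Nxph3 difference between PL-BLA and PL-VTA had an adjusted p of 0.0405 by the Wald test.

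**Figure D3:**
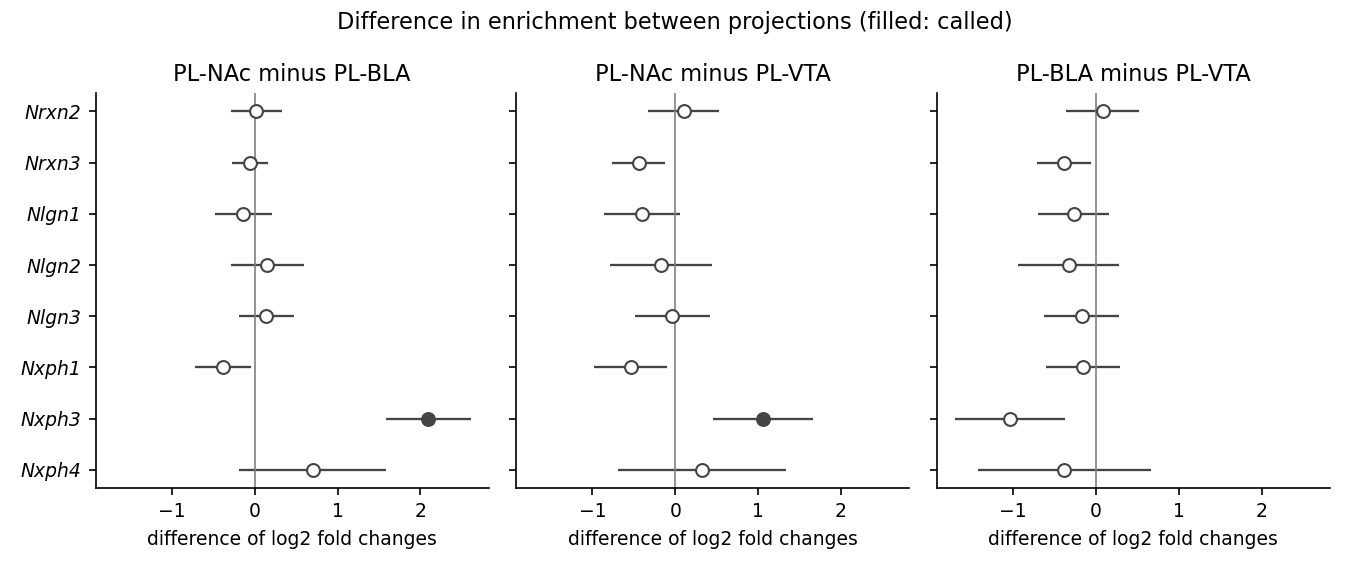
Difference of log2 fold changes between projections (horizontal axis) for each gene, with 95% intervals; filled points passed an adjusted p under 0.05 over all genes. Nxph3 stands at 2.09 for PL-NAc minus PL-BLA and at 1.05 for PL-NAc minus PL-VTA, and no other gene passed in any panel.

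Markers of layer 6, the deepest cortical layer, were set beside Nxph3. Of 7 such markers 4 were higher and 1 lower in PL-NAc (median 0.35), 2 higher and 3 lower in PL-BLA (median -0.27), and 1 higher and 1 lower in PL-VTA (median 0.36) in the authors' deposited tables. Between PL-NAc and PL-BLA 4 of the 7 differed, all with PL-NAc higher, by the two-sided Wald test. The transcription factor gene Foxp2 differed by 1.80 (SE 0.23, adjusted p 2.9e-11) and the vesicle protein gene Syt6 by 1.25 (SE 0.20, adjusted p 2.0e-07) by the Wald test. In PL-BLA Foxp2 was -1.75 (SE 0.17) and Syt6 -1.87 (SE 0.15), while in PL-NAc, where Nxph3 rose, Foxp2 was 0.06 (SE 0.16) and not called and Syt6 fell by 0.62 (SE 0.12), in the authors' deposited tables. Ntsr1, a receptor gene of the same list, was higher in all 3 projections, with 1.59 (SE 0.28), 1.38 (SE 0.27) and 1.32 (SE 0.39) in the authors' deposited tables. Against PL-VTA, PL-NAc was higher for 1 of the 7, and PL-BLA was lower for 3 of the 7. Layer 5 extratelencephalic markers, of neurons that project below the forebrain, had medians of -0.14, -0.90 and 1.89 in PL-NAc, PL-BLA and PL-VTA in the authors' deposited tables. Of the 6, 2 were higher and 2 lower in PL-NAc, 2 higher and 3 lower in PL-BLA, and 5 higher and 0 lower in PL-VTA, where the sixth had no adjusted p. Between PL-NAc and PL-BLA 4 of the 6 differed, all with PL-NAc higher, by the two-sided Wald test. PL-NAc and PL-BLA were each lower than PL-VTA for 5 of the 6. Fezf2, which specifies these neurons, was 1.57 (SE 0.08), 0.84 (SE 0.10) and 2.94 (SE 0.15) in the authors' deposited tables. Pou3f1, a transcription factor gene of the same list, was -0.55 (SE 0.11), -1.65 (SE 0.13) and 1.89 (SE 0.14) in the authors' deposited tables. Layer 5 intratelencephalic markers are of neurons that project within the forebrain. Medians of these markers were 0.29, 0.71 and -0.77 in PL-NAc, PL-BLA and PL-VTA in the authors' deposited tables. Of these 5 markers, 4 were higher in PL-NAc than in PL-VTA and 0 differed between PL-NAc and PL-BLA, by the two-sided Wald test. The part of layer composition in the Nxph3 values was not tested.

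Nxph4 was the least abundant member, with means of 48.7, 40.4 and 61.2 normalized counts in the authors' deposited tables. It was 0.54 (SE 0.30, adjusted p 0.148), -0.16 (SE 0.33, adjusted p 0.745) and 0.22 (SE 0.42, adjusted p 0.790) in PL-NAc, PL-BLA and PL-VTA by DESeq2 in the authors' deposited tables. Its PL-NAc minus PL-BLA difference of 0.70 had an interval from -0.19 to 1.59, so a difference was not detectable at this depth. As shares of the summed level per kb of the 3 neurexophilins, Nxph1 made up 62.1%, 61.1% and 58.0% in the Inputs, which were close to each other. In the IPs Nxph1 made up 19.6%, 52.0% and 36.3% in the same order of projections, and Nxph3 made up 69.8%, 35.3% and 50.5%. Nxph4 made up 7.24% to 8.74% in the Inputs and 10.6% to 13.2% in the IPs.

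**Figure D4:**
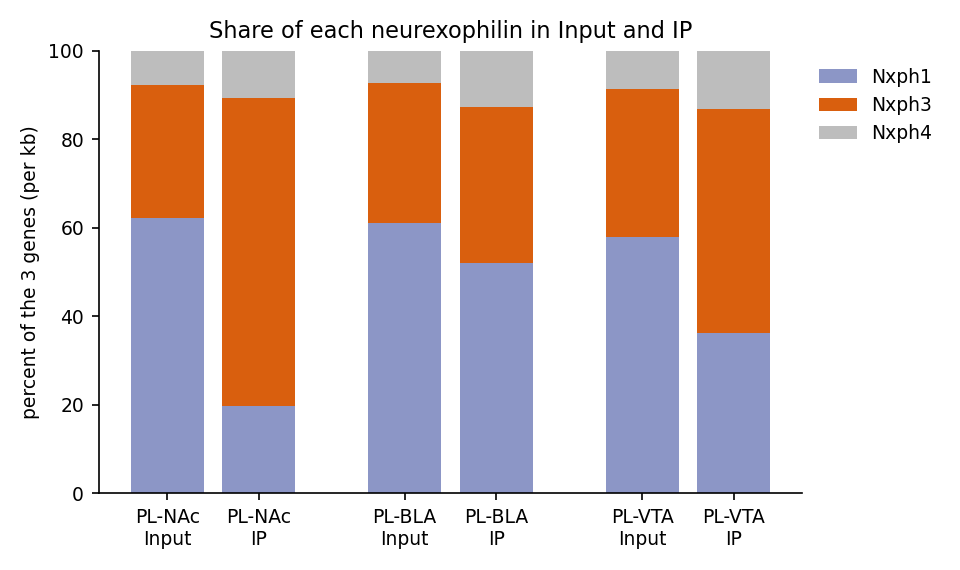
Stacked share (percent, vertical axis) of Nxph1, Nxph3 and Nxph4 in their summed derived level per kb, for Input and IP of each projection; the shares carry no replicate error. The 3 Input bars are alike, with Nxph3 at 30.2% to 33.3%, while Nxph3 takes 69.8% of the PL-NAc IP and 35.3% of the PL-BLA IP.

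Other ligands of neurexins were measured through a list of 17 genes. In PL-NAc 7 were higher and 5 lower (median 0.38), in PL-BLA 8 and 4 (median 0.33), and in PL-VTA 7 and 2 (median 0.34) in the authors' deposited tables. Among all tested genes 21.4%, 20.8% and 11.0% were higher in PL-NAc, PL-BLA and PL-VTA, and 21.7%, 20.2% and 10.5% lower. Whether the list departs from these shares was not tested. C1ql3, a secreted C1q-like protein, rose by 1.17 (SE 0.09), 1.45 (SE 0.10) and 1.02 (SE 0.18) in PL-NAc, PL-BLA and PL-VTA in the authors' deposited tables. Igsf21, an adhesion protein that binds Nrxn2, rose by 0.99 (SE 0.08), 0.46 (SE 0.10) and 1.29 (SE 0.17) in the authors' deposited tables. Its enrichment was lower in PL-BLA than in PL-NAc (difference 0.53, adjusted p 0.00437) and than in PL-VTA (difference -0.83, adjusted p 0.00116) by the Wald test. The calsyntenin gene Clstn3 rose by 0.46 (SE 0.06), 0.74 (SE 0.08) and 0.72 (SE 0.13) in the authors' deposited tables. Lrrtm1, a leucine-rich repeat ligand at excitatory synapses, rose by 0.45 (SE 0.08) in PL-NAc and 0.61 (SE 0.08) in PL-BLA in the authors' deposited tables. In PL-VTA it was 0.34 (SE 0.15) and not called. C1ql2, another C1q-like gene, singled out after its values were seen, rose by 1.78 (SE 0.40) in PL-VTA in the authors' deposited table, and PL-BLA was lower than PL-VTA by -2.19 (adjusted p 0.00749, Wald test). C1ql2 had low means of 14.9, 12.1 and 70.8 normalized counts in PL-NAc, PL-BLA and PL-VTA in the authors' deposited tables. Its values of 0.40 (SE 0.42) in PL-NAc and -0.41 (SE 0.42) in PL-BLA were not called in those tables. Fam19a1, a small secreted protein gene, rose by 1.64 (SE 0.20) in PL-VTA in the authors' deposited table, and this was higher than in PL-NAc by 1.01 and than in PL-BLA by 1.22 (adjusted p 0.000874 and 2.2e-05, Wald test).

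Ligands that fell included Cbln4, a secreted cerebellin, with -1.30 (SE 0.17) for PL-NAc and -0.77 (SE 0.27) for PL-VTA in the authors' deposited tables. Fam19a2, of the same small secreted family as Fam19a1, was -0.70 (SE 0.11), -0.58 (SE 0.10) and -0.55 (SE 0.18) in the authors' deposited tables. Sparcl1, which encodes the astrocyte protein hevin that bridges neurexins and neuroligins, fell by 0.85 (SE 0.07) in PL-NAc and by 1.07 (SE 0.08) in PL-BLA in the authors' deposited tables. In PL-VTA, where it was not called, it was -0.22 (SE 0.13) in the authors' deposited table. The difference from both other projections passed (adjusted p 0.00209 and 6.1e-06, Wald test). Of the 8 astrocyte markers 8, 7 and 8 were lower in PL-NAc, PL-BLA and PL-VTA. Their sign is no finding, since the direction was read from glial genes. The part of astrocyte RNA in the Sparcl1 values was not tested.

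A list of 11 genes of proteins that bind or act with neuroligins was also measured. Of these 1 was higher and 5 lower in PL-NAc (median -0.15), and 0 were higher and 3 lower in both PL-BLA (median -0.23) and PL-VTA (median -0.10) in the authors' deposited tables. Over all tested genes 21.7%, 20.2% and 10.5% were lower in PL-NAc, PL-BLA and PL-VTA, and whether the list departs from these shares was not tested. Mdga1, which blocks neuroligins from binding neurexins, fell by 1.07 (SE 0.17) in PL-NAc and by 0.86 (SE 0.20) in PL-BLA in the authors' deposited tables, and stood at 0.05 (SE 0.28) in PL-VTA. The scaffold gene Dlg1 fell by 0.61 (SE 0.08), 0.33 (SE 0.09) and 0.59 (SE 0.16) in PL-NAc, PL-BLA and PL-VTA in the authors' deposited tables. Gphn, which encodes the inhibitory synapse scaffold gephyrin, was 0.22 (SE 0.10) in PL-BLA and 0.33 (SE 0.18) in PL-VTA and was called in neither of these authors' deposited tables. Magi2 fell by 0.45 (SE 0.17) in PL-VTA in the authors' deposited table. The exception in PL-NAc was Dlg4, the PSD-95 gene, which rose by 0.36 (SE 0.11) in the authors' deposited table. This differed from PL-BLA by 0.64 (adjusted p 0.0326, Wald test).

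Cytoplasmic partners, sorting factors and splicing regulators of neurexins formed a list of 11 genes. In PL-NAc 4 were higher and 3 lower (median 0.07), in PL-BLA 5 and 2 (median 0.14), and in PL-VTA 4 and 0 (median 0.33) in the authors' deposited tables. Shares over all tested genes were 21.4%, 20.8% and 11.0% higher and 21.7%, 20.2% and 10.5% lower in PL-NAc, PL-BLA and PL-VTA. A departure of the list from these shares was not tested. Khdrbs3, which regulates alternative splicing of neurexin transcripts, rose by 0.95 (SE 0.06), 0.70 (SE 0.20) and 0.89 (SE 0.13) in the same order in the authors' deposited tables. Its relative Khdrbs2 fell by 0.65 (SE 0.20) in PL-NAc and by 0.73 (SE 0.20) in PL-BLA in the authors' deposited tables, and PL-BLA was lower than PL-VTA by -1.14 (adjusted p 0.0356, Wald test). The scaffold gene Lin7b rose by 0.80 (SE 0.08), 0.44 (SE 0.08) and 0.43 (SE 0.15), while Lin7c fell by 0.32 (SE 0.11) in PL-NAc and 0.37 (SE 0.10) in PL-BLA, in the authors' deposited tables. Syntenin (Sdcbp), another scaffold, rose by 0.30 (SE 0.06), 0.31 (SE 0.07) and 0.62 (SE 0.14) in the authors' deposited tables. The neurexin sorting receptor gene Sorcs1 rose by 1.06 (SE 0.21) in PL-VTA in the authors' deposited table, which was higher than in PL-BLA by 0.93 (adjusted p 0.0145, Wald test). In PL-NAc Apba1 was -0.28 (SE 0.12) in the authors' deposited table.

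Among 4 proteases that cleave neurexins or neuroligins, Adam10 fell by 0.35 (SE 0.12) in PL-NAc and 0.33 (SE 0.13) in PL-BLA and Bace1 rose by 0.36 (SE 0.08) in PL-NAc in the authors' deposited tables. None of the 4 was called in PL-VTA in the authors' deposited table, where Mmp9 was 0.64 (SE 0.45). A further list of 25 genes of other synaptic adhesion families had 6 higher and 6 lower in PL-NAc, 11 and 3 in PL-BLA, and 4 and 1 in PL-VTA in the authors' deposited tables. Their medians were 0.08, 0.05 and 0.14. Over all tested genes 21.4%, 20.8% and 11.0% were higher in PL-NAc, PL-BLA and PL-VTA, and 21.7%, 20.2% and 10.5% lower. Whether the proteases or these 25 genes depart from these shares was not tested. The receptor phosphatase gene Ptprf rose by 1.01 (SE 0.10), 1.06 (SE 0.09) and 0.92 (SE 0.17), and the adhesion gene Cadm1 by 0.97 (SE 0.07), 0.79 (SE 0.07) and 1.26 (SE 0.13), in the authors' deposited tables. Cadm4 was the single gene that was lower in PL-VTA, with -1.46 (SE 0.19) in the authors' deposited table. It was lower than in PL-NAc by the Wald test (difference 1.46, adjusted p 1.5e-08). Ptprs rose by 0.36 (SE 0.07) in PL-NAc and 0.71 (SE 0.07) in PL-BLA, and Slitrk3 fell by 0.56 (SE 0.13) in PL-NAc, in the authors' deposited tables. In PL-BLA the 3 that fell were Slitrk2, Il1rapl1 and Cadm2, at -0.82, -0.53 and -0.22 in the authors' deposited table. The neurotrophin receptor gene Ntrk3 rose by 0.57 (SE 0.12) in PL-BLA and 0.85 (SE 0.22) in PL-VTA in the authors' deposited tables.

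**Figure D5:**
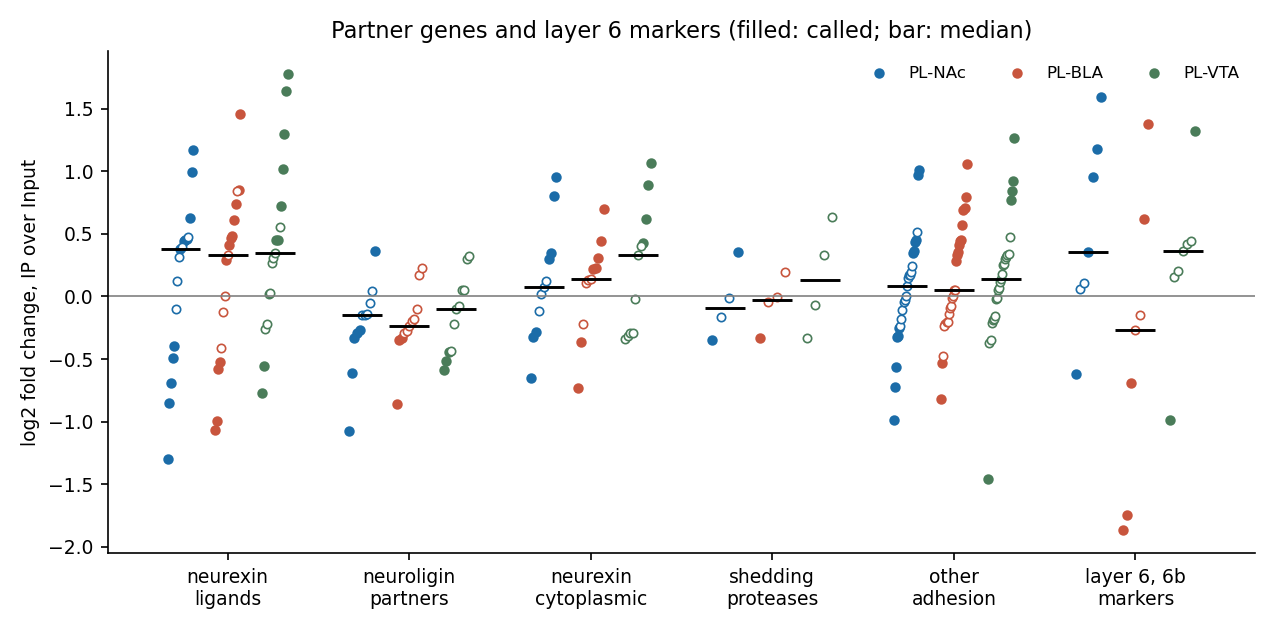
Log2 fold change of IP over Input (vertical axis) for each gene of the partner lists and the layer 6 markers, by projection; filled points were called at an adjusted p under 0.05 and black bars are medians. Neurexin ligands spread from -1.30 to 1.17 in PL-NAc with a median of 0.38, and layer 6 markers have medians of 0.35, -0.27 and 0.36.

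Genes with the pattern most like a member were sought among 11870 genes with means of at least 50 in every table, by the root mean square difference of the 3 fold changes. For Nxph3 the nearest were Lsp1 at 0.374, Hs3st4 at 0.440 and Ctgf, a marker of layer 6b, at 0.445, and no gene lay within the root mean square SE of Nxph3 itself, 0.216. Lsp1 was 1.02, -0.33 and 0.57 in PL-NAc, PL-BLA and PL-VTA, and Ctgf 0.95, -0.15 and 0.44, in the authors' deposited tables. For Nxph1, 43 genes lay within its SE of 0.149, the nearest being Cmtm5, Npas3 and Glns-ps1 at 0.0408 to 0.0574. For Nrxn3, 118 genes lay within 0.106, led by Zfp354b, Pold3 and Cpne8. For Nlgn2 and Nxph4, whose SE were wider at 0.202 and 0.355, there were 2102 and 3471 such genes, so their nearest genes (among them Tmem8b, Cd47 and Arxes2 for the first, and A230103J11Rik and Fancf for the second) are not distinguished from many others. With 3 fold changes per gene, likeness here is a description only.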

How the data were processed

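RNA of 16 libraries in 6 groups was measured by sequencing after SMARTer Ultra Low and Nextera XT library preparation, per the labels' protocols. The submitters' processing notes name STAR 2.3, featureCounts and DESeq2, and the build mm10 or GRCm38. For the read length, annotation release, strand setting, filters and model, the sources used here give nothing. The 3 deposited tables hold no values of single libraries. Per the file headers they give the mean signal of normalized counts, the log2 fold change and its SE, the Wald test score, and p-values before and after adjustment. In the deposited values the score equalled the fold change over its SE, and the p-values were its two-sided normal p with Benjamini-Hochberg adjustment over 17998, 17668 and 15440 genes in PL-NAc, PL-BLA and PL-VTA. In PL-NAc Slc22a12, at a mean of 0.565 normalized counts, had an SE of 0.197, below the 0.305 of Nxph4 at 48.7. Without shrinkage a gene of so few counts would have a wider SE, so the deposited log2 values appear shrunken toward 0. This understates changes of low genes. Its extent may differ between the 3 comparisons, and the differences between projections were not corrected for it.

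Computed here, with Python 3.11.15, pandas 2.3.3 and scipy 1.17.1, were 95% intervals, derived Input and IP levels, and differences between projections. These differences used a two-sided Wald z from the 2 deposited fold changes and SE, adjusted over 21981, 21559 and 21613 genes. The test was also run on simulated data with noise drawn from the same SE, which cannot show whether those SE are right. Exon lengths, gene spans and coding sequences came from GENCODE M21 (GRCm38), which matched 96.4% of gene rows. All 8 members were named. From each partner list and comparison the text names the 4 genes of smallest adjusted p and any called against the list's majority (at most 3), and from a cell type list beside a member the 2 of smallest adjusted p. This last part was followed only in part: of the cell type genes, Lhx6, Gad1, Gad2, Slc32a1, Sst and Cspg4, and which of the layer genes are named, were chosen after their values were seen. A few genes that the rule names are not reported here. Also chosen after seeing values were C1ql2 and the side-by-side values of a named gene in a further projection. The members and gene lists were chosen with earlier results of these data known. Alternatives were a stricter threshold, other filters on the mean, recentring on the median gene or within 10 classes of gene span (the span planned from the deposited tables was taken from GENCODE, as they hold no coordinates), a minimum change of 0.5, and Bonferroni adjustment.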

Additional observations from a re-analysis of the deposited data

Results flagged for a closer look

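Nxph3 stood out because its enrichment differed between projections by a test of the difference itself. It was 2.09 higher in PL-NAc than in PL-BLA on the log2 scale (adjusted p 7.4e-12, two-sided Wald test over all genes), with a deposited value of 1.28 in PL-NAc and -0.82 in PL-BLA. It was 1.05 higher in PL-NAc than in PL-VTA (adjusted p 0.0320, same test), where the deposited PL-VTA value was 0.22. In the first of these comparisons 4 of the 7 layer 6 markers differed in the same direction as Nxph3. So did 4 of the 6 layer 5 extratelencephalic markers. Against PL-VTA, PL-NAc was higher for 1 of the 7 and lower for 5 of the 6. Of 5 layer 5 intratelencephalic markers, 4 were higher in PL-NAc than in PL-VTA, and 0 differed between PL-NAc and PL-BLA. Of 8 excitatory neuron markers these numbers were also 4 and 0. Of 6 upper-layer markers 0 were higher and 1 lower in PL-NAc than in PL-VTA, and 2 were lower than in PL-BLA. The part of any of these sets of markers in the result was not tested.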

How the results depend on the processing

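No paired analysis was possible because the deposited tables hold no values of single libraries; for the same reason leaving out each replicate in turn was not run. Of 259 values of single members recomputed under the alternatives, 247 kept their direction and their side of the threshold, 9 no longer passed, 2 newly passed and 1 changed sign. The last was Nrxn3 in PL-NAc, which was not called in either case and moved to -0.0068 when recentred on the median gene. The median gene with a mean of at least 50 stood at 0.06 in each projection. Only the recentrings could move a value, so under the other alternatives its direction was fixed in advance. A member not called could not newly pass at a threshold of 0.01, with a minimum change of 0.5 or under Bonferroni adjustment. The count of 247 is therefore no measure of robustness. Requiring an absolute log2 change of at least 0.5 left 2 members called in PL-NAc and 2 in PL-BLA, since Nrxn2 and Nlgn1 lie under that size, and 2 of 3 in PL-VTA, where Nrxn3 was lost. For PL-NAc against PL-VTA, a threshold of 0.01 and Bonferroni adjustment each left 0 members. For PL-BLA against PL-VTA, adjusting over genes with means of at least 50 gave 1 member, Nxph3, of 7 tested. Recentring within 10 classes of gene span brought Nrxn3 past the threshold in PL-BLA (0.22, adjusted p 0.0176, Wald test). Counts of partner genes called stayed within 1.5 times under a threshold of 0.01 and under recentring in each projection. The SE in PL-VTA, with 2 libraries a side, and the low means of Nxph4 limit what could be detected.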

Other observations

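Nxph2, a neurexophilin outside the 8 genes that was looked up after its values were seen, had means of 39.0 to 40.2 normalized counts in the authors' deposited tables. It was -0.68 (SE 0.33, adjusted p 0.0849) in PL-NAc, -1.13 (SE 0.34, adjusted p 0.00295) in PL-BLA and -0.77 (SE 0.44, adjusted p 0.225) in PL-VTA by DESeq2 in the authors' deposited tables, and was called only in PL-BLA.

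Fold changes were lower in longer genes. Genes were put into 10 classes by genomic span. Among those with means of at least 50, the class with the shortest spans had median log2 fold changes of 0.44, 0.28 and 0.35 in PL-NAc, PL-BLA and PL-VTA, and the class with the longest had -0.10, -0.11 and -0.05. Nrxn2, Nrxn3, Nlgn1 and Nxph1 all lie in the longest class. Nrxn2, Nrxn3 and Nlgn1 were above that median in each projection and Nxph1 was below it.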
